A study of Homo sapiens with 15 samples.

Results

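SCC13 is an established human line of squamous cell carcinoma of the skin. SCC13 cells stably transfected with a plasmid that carries TLR4 fused to green fluorescent protein (SCC13-TLR4) were compared with SCC13 cells transfected with the plasmid without TLR4 (SCC13-pUNO), both after 24 h with 10 μg/ml of ultrapure lipopolysaccharide (LPS). All 4 arrays of LPS-treated SCC13-TLR4 cells and all 4 arrays of LPS-treated SCC13-pUNO cells were taken by their labels, which makes 8 of the 15 arrays of the series. The other 7 arrays, 3 of untreated SCC13-TLR4 cells and 4 of untreated SCC13-pUNO cells, share no array with this comparison and are used beside it. Both lines were kept under blasticidin, and the SCC13-TLR4 cells were in addition sorted for a strong fluorescent signal. Each line is 1 transfection, and the 4 replicates are dishes seeded from it, so the spread measured is that between dishes. An effect of TLR4 and any other difference between these transfected lines cannot be told apart here.

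TLR4 is the receptor through which cells sense LPS of Gram-negative bacteria. The protein MD-2, made from LY96, holds the LPS molecule, and CD14 hands it over. The adaptors TIRAP and MYD88 then pass the signal through IRAK and TRAF6 to the kinases that free NF-kB, which turns on chemokine and cytokine genes, while the adaptor TRIF, made from TICAM1, leads to the interferon response. In keratinocytes this pathway is best known for the release of chemokines that call in neutrophils.

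RNA was read on 1-colour Agilent arrays. The level given below is the log2 intensity of a probe minus that of the 75th percentile of its array, so that 0 means as bright as that percentile and 1 unit is a doubling of the intensity. The 75th percentile was between 192 and 420 intensity units on the 8 arrays, and between 47.5% and 56.2% of the spots were well above background as the scanner software marks it. The arrays lay on a pair of slides, with 2 arrays of each line on each slide, and slide took 46.9% of the variance over probes while the line took 10.5%. Slide was therefore a term of the fit. Within a slide, the SCC13-TLR4 arrays lay in row 2 and the SCC13-pUNO arrays in row 4, so that row and line cannot be told apart. Of 12 keratinocyte markers, 11 were well above background on all 8 arrays, with a summed intensity of 646 to 887 times the 75th percentile in SCC13-TLR4 cells and 708 to 846 times in SCC13-pUNO cells, and 9 of 10 fibroblast markers were not above background on any of them. Of 8 leukocyte markers on the array 6 were above background on all 8 arrays, with a summed intensity of 3.28 to 6.30 times the 75th percentile in SCC13-TLR4 cells and 4.11 to 5.92 times in SCC13-pUNO cells. Of 7 melanocyte and 7 endothelial markers, 2 each were above background on all 8 arrays, and SOX10, TYR and TYRP1 and CLDN5, KDR and TEK on none. The part of such cells in the results was not tested.

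The lines differed in few genes under LPS. Probes were tested where all arrays of 1 line, or of both, stood well above background, and of these 21790 probes 8 passed an adjusted p of 0.05 in limma (0.0367%), 5 of them higher in SCC13-TLR4 cells (0.0229%) and 3 lower (0.0138%). TLR4, the beta-globin gene HBB, FHIT, KRT14 and 1 probe with no gene symbol were higher, and RANBP17, MEST and another probe with no symbol were lower. With an absolute log2 difference over 2 as a further condition, 5 probes were left (0.0229%). An unadjusted p under 0.05 was found for 945 probes (4.34%), 459 higher (2.11%) and 486 lower (2.23%). With the replicate number as a block in place of the slide, 4 probes passed (HBB, TLR4, RANBP17 and A_33_P3274009), and the adjusted p became 0.232 for FHIT, 0.272 for KRT14 and A_32_P76627, and 0.221 for MEST. Leaving out 1 array left between 4 and 7 probes, and those 4 were among them each time. The count was 4 without SCC13-pUNO replicate 2 or 3 or SCC13-TLR4 replicate 1, 3 or 4, and 5 without SCC13-pUNO replicate 4 or SCC13-TLR4 replicate 2.

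TLR4 was read by probe A_24_P69538 (chromosome 9). On the SCC13-TLR4 arrays of replicates 1 to 4 its level was 3.08, 3.19, 2.84 and 3.02, and on the SCC13-pUNO arrays it was -6.19, -6.26, -6.09 and -4.74. The signal was well above background on all 4 SCC13-TLR4 arrays and on 0 of 4 SCC13-pUNO arrays, so the label of every LPS-treated array fits the level of the transfected gene. The mean was 3.03 ± 0.14 against -5.82 ± 0.73 (SD, n = 4 each), a log2 difference of 8.86 (SE 0.32, limma adjusted p = 6.74e-05). Since the vector line was not well above background, the fold is given against the faintest probe that was still well above background on the same arrays. By this TLR4 was 157-fold higher. Probes not well above background reached up to -3.51 on the SCC13-pUNO arrays, so this is not a strict lower limit. The other TLR4 probe, A_32_P66881, gave no signal well above background on any of the 8 arrays. Transcripts of the plasmid and of the cells' own gene cannot be told apart by these probes here.

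The largest difference was that of HBB (A_23_P203558, chromosome 11), which encodes the beta chain of adult hemoglobin and is best known from red cell precursors. HBB was at 3.96, 4.56, 4.38 and 4.29 on the SCC13-TLR4 arrays and at -5.89, -6.01, -5.19 and -5.71 on the SCC13-pUNO arrays. It was above background in SCC13-TLR4 cells only, on 4 of 4 arrays (log2 difference 9.99, SE 0.18, limma adjusted p = 7.33e-07). Against the faintest probe well above background HBB was 377-fold higher there, again not a strict lower limit. Of a list of 12 erythroid markers that includes HBB, 10 were on the array, 8 were tested and HBB alone passed. The fetal globin HBG1 differed by a log2 difference of 0.74 (SE 0.35) and the anion exchanger SLC4A1 by -0.94 (SE 0.42), each with a limma adjusted p of 0.954. The embryonic globin HBE1 and AHSP, the chaperone of alpha-globin, were not above background on any of the 8 arrays. The intensities of the list summed to between 16.8 and 25.2 times the 75th percentile in SCC13-TLR4 cells and to between 1.29 and 1.56 times in SCC13-pUNO cells. Without HBB the sums were 1.26 to 1.85 and 1.27 to 1.54 times. The part of other cells in this result was not tested, and in bulk RNA more cells of a type and more RNA per cell cannot be told apart.

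RANBP17 (A_23_P58819, chromosome 5), which encodes a transport receptor of the importin-beta family, was the gene with the largest difference in the other direction. It was at -1.33, -1.84, -2.36 and -1.97 on the SCC13-pUNO arrays, well above background on all 4, and at -6.43, -6.13, -6.33 and -6.66 on the SCC13-TLR4 arrays, where it was not well above background on any. The fitted log2 difference was -4.52 (SE 0.17, limma adjusted p = 7.53e-05). Against the faintest probe well above background RANBP17 was 6.58-fold lower in SCC13-TLR4 cells. Probes not well above background reached up to -3.69 on the SCC13-TLR4 arrays, so this too is not a strict lower limit. The probe A_33_P3274009, whose accession has no gene symbol in the table used here, was bright in both lines, with levels of 3.66, 3.06, 3.99 and 3.91 in SCC13-pUNO cells and 0.36, 0.38, 1.24 and 0.73 in SCC13-TLR4 cells. Its groups lay far apart, with a log2 difference of -2.98 (SE 0.16, limma adjusted p = 0.000775).

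FHIT (A_33_P3216601, chromosome 3), which spans a fragile site and is known as a tumor suppressor that is often lost in epithelial cancers, was at -0.47, -0.12, -0.74 and -0.95 in SCC13-TLR4 cells and at -2.23, -2.84, -3.50 and -2.75 in SCC13-pUNO cells. Its log2 difference was 2.26 (SE 0.20, limma adjusted p = 0.0257). MEST (A_23_P156970, chromosome 7), an imprinted gene expressed from the paternal copy, was at -0.26, -0.33, -0.42 and -0.35 in SCC13-pUNO cells and at -1.86, -1.35, -1.70 and -1.58 in SCC13-TLR4 cells. The difference was -1.28 (SE 0.12, limma adjusted p = 0.0283), and it was nearly the same on both slides, -1.31 and -1.26. The unnamed probe A_32_P76627 was at 3.31 ± 0.24 in SCC13-TLR4 cells and 2.15 ± 0.28 (SD, n = 4 each) in SCC13-pUNO cells, a log2 difference of 1.16 (SE 0.11, limma adjusted p = 0.0283).

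KRT14 encodes the keratin of basal keratinocytes that pairs with keratin 5. Its probe A_21_P0011633 (chromosome 17) was at 4.00, 4.15, 3.82 and 3.44 in SCC13-TLR4 cells and at 2.89, 2.19, 1.74 and 1.88 in SCC13-pUNO cells, a log2 difference of 1.68 (SE 0.17, limma adjusted p = 0.0416). Both other KRT14 probes also had groups that did not overlap, with log2 differences of 1.73 (SE 0.25, limma adjusted p = 0.221) and 0.71 (SE 0.11, limma adjusted p = 0.278), which did not pass. KRT14 has close relatives and pseudogenes, and which transcripts each probe reads was not tested. KRT5, the partner of KRT14, was at 6.56 ± 0.17 against 6.29 ± 0.23 (SD, n = 4 each), with a log2 difference of 0.27 (SE 0.09, limma adjusted p = 0.954).

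**Figure D1:**
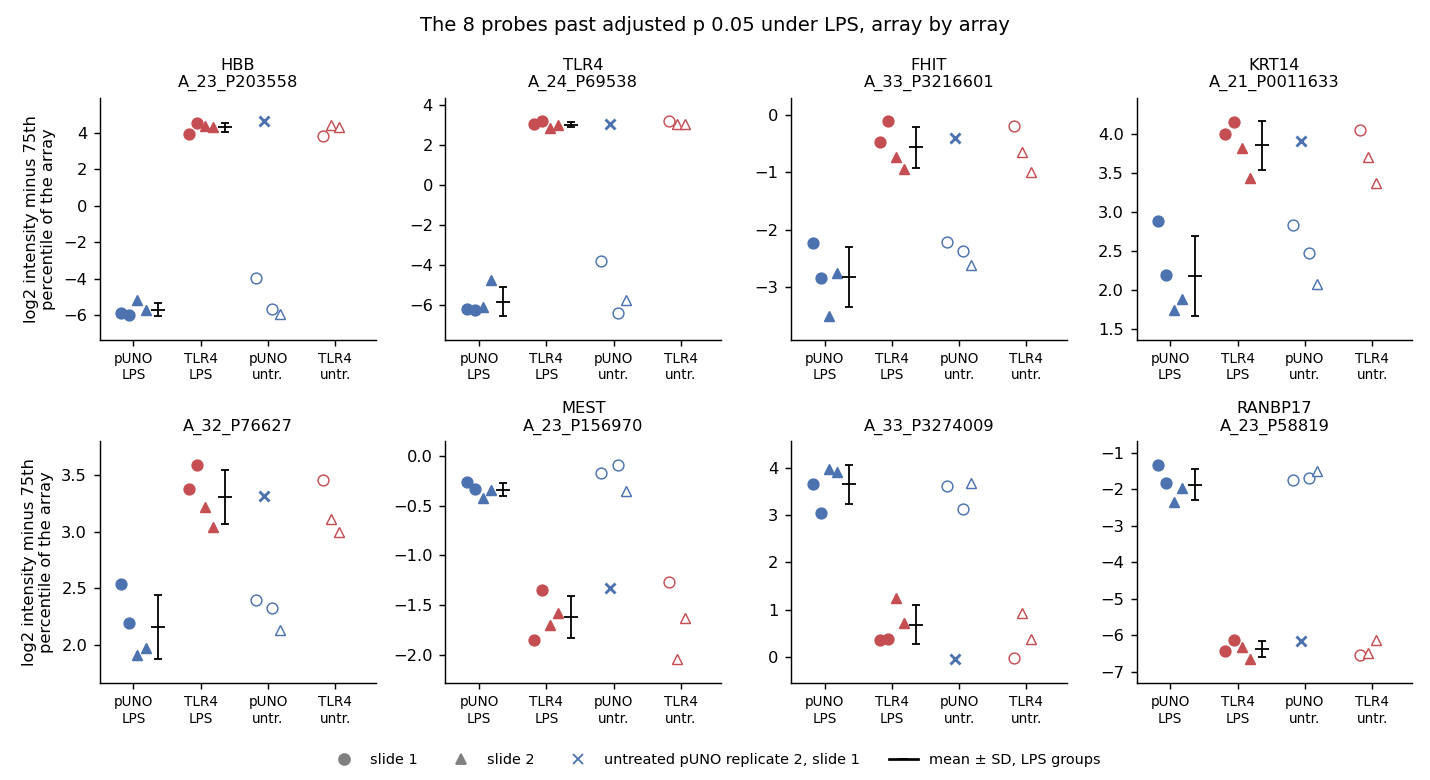
Log2 level (intensity minus the 75th percentile of the array, vertical axis) of the 8 probes past an adjusted p of 0.05, for each array of the 2 LPS-treated groups (filled) and the 2 untreated groups (open), with circles for slide 1, triangles for slide 2 and bars for the mean ± SD of the LPS-treated groups. The filled red and blue points do not overlap in any panel, and replicate 2 of untreated SCC13-pUNO (cross) lies with the SCC13-TLR4 arrays in all 8.

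For a single probe, an exact two-sided permutation test over the 70 ways to divide the 8 arrays into 4 and 4 cannot go below p = 0.0286, and it gave this value for each of the 8 probes. Any probe whose groups do not overlap gives this value, so it adds nothing to the choice of the 8. The permutation used values without correction for slide. Groups that did not overlap were found for 288 of all 21790 probes (1.32%), 124 higher (0.569%) and 164 lower (0.753%) in SCC13-TLR4 cells. Each slide on its own gave the same picture for the 8 probes. HBB differed by 10.20 on slide 1 and 9.79 on slide 2, TLR4 by 9.36 and 8.35, RANBP17 by -4.70 and -4.33, A_33_P3274009 by -2.99 and -2.97, and FHIT by 2.24 and 2.28. Large mean differences lay mostly in faint probes. A log2 fold change over 1 in either direction was found for 126 probes, of which 21 were well above background on all 8 arrays and 8 passed the adjusted p, and their median SE was 0.55 against 0.13 for all probes tested.

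**Figure D2:**
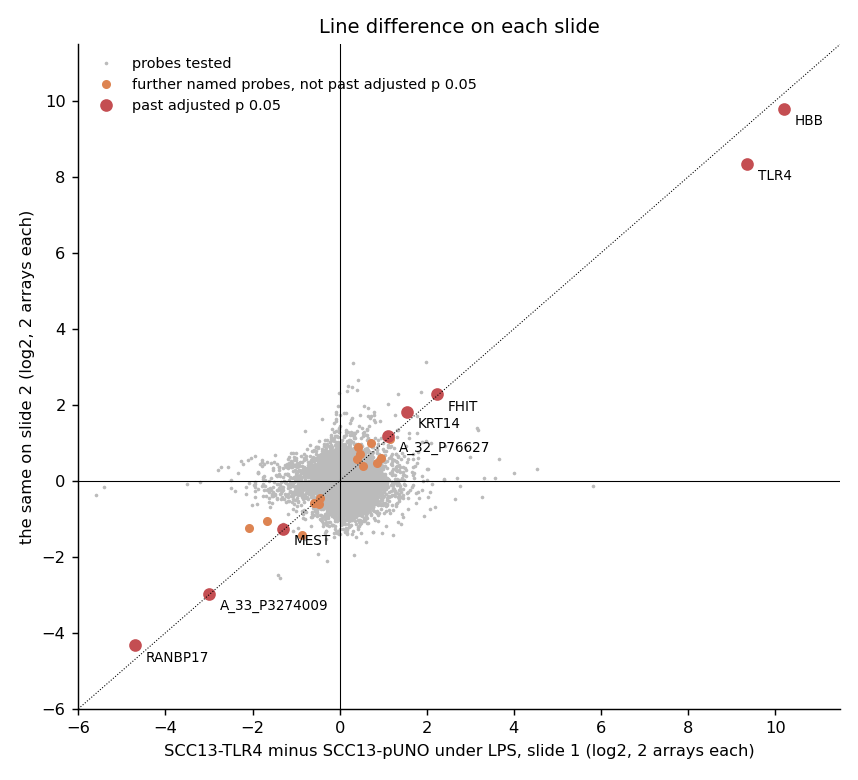
Log2 difference between SCC13-TLR4 and SCC13-pUNO cells under LPS on slide 1 (horizontal axis) and on slide 2 (vertical axis), 2 arrays of each line per slide, for every probe tested. The 8 probes past an adjusted p of 0.05 (red) lie on or near the dotted line of equal values, from RANBP17 at -4.70 and -4.33 to HBB at 10.20 and 9.79, while the widest grey points lie near an axis, with a difference on 1 slide only.

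Below the threshold, the probes with the smallest p among those well above background on all 8 arrays, with groups that did not overlap and the same sign on both slides, named a further 14 genes. Their values are a description, since these conditions chose them. ERP27, a redox-inactive member of the protein disulfide isomerase family in the endoplasmic reticulum, was nearest to the threshold, at -3.20, -2.99, -2.79 and -2.68 in SCC13-TLR4 cells and -0.96, -1.06, -1.73 and -1.25 in SCC13-pUNO cells (log2 difference -1.67, SE 0.20, limma adjusted p = 0.0916). TCEAL6, an X-linked gene of the transcription elongation factor A-like family, had log2 differences of -1.36 (SE 0.19) and -1.37 (SE 0.21) by its probes A_32_P192545 and A_33_P3356910. RAMP1, which with its partner forms the receptor of the neuropeptide CGRP, had -1.14 (SE 0.17). On the higher side of SCC13-TLR4 cells were the small nucleolar RNA SNORD45A (1.13, SE 0.15), the homeobox gene IRX5 (0.77, SE 0.11), the matrix protein gene THBS2 (0.67, SE 0.11), FARP2 (0.66, SE 0.12), VPREB3 (0.59, SE 0.11), the amine oxidase AOC3 (0.48, SE 0.09) and TMEM81 (0.47, SE 0.09). On the lower side were the actin-binding calponin CNN3 (-0.59, SE 0.10), CDIP1 (-0.54, SE 0.10) and PTK6, a kinase of epithelial cells (-0.46, SE 0.09). By its other, fainter probe FARP2 differed by 0.01 (SE 0.10). CDIP1 differed by -0.26 (SE 0.20) by its other probe A_33_P3333360, whose groups overlapped.

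CXCL1, a chemokine that attracts neutrophils and a known NF-kB target, was the remaining one of the 14 and is also a gene the study followed. By its brighter probe A_23_P7144 it was at -0.08, 0.16, -0.14 and -0.11 in SCC13-TLR4 cells and at -1.45, -1.41, -0.67 and -0.90 in SCC13-pUNO cells. By A_33_P3330264 it was at -1.10, -0.97, -1.04 and -1.31 against -1.84, -1.68, -2.05 and -2.27. The groups did not overlap by either probe. The log2 difference was 1.06 (SE 0.18, limma adjusted p = 0.329) by the first and 0.85 (SE 0.12, limma adjusted p = 0.168) by the second, neither past the threshold.

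CXCL2 is another chemokine gene on chromosome 4, encodes a closely related neutrophil attractant, and was chosen for this comparison after its values were seen. By A_23_P315364 its level was between -2.18 and -1.75 in SCC13-TLR4 cells and between -2.27 and -1.47 in SCC13-pUNO cells, and the groups overlapped. The log2 difference was -0.13 (SE 0.12) by this probe and 0.19 (SE 0.11) by A_24_P257416, with limma adjusted p-values of 0.958 and 0.954. The test of a difference between CXCL1 and CXCL2 was not made. The stretches of 250 bases before the start of both genes are shown since they carry the same NF-kB motif at almost the same distance. They are taken from RefSeq (GRCh38.p14), chr4:73869143-73869392 on the plus strand for CXCL1 and chr4:74099196-74099445 on the minus strand for CXCL2, and the capitals mark GGGAATTTCC.
CXCL1: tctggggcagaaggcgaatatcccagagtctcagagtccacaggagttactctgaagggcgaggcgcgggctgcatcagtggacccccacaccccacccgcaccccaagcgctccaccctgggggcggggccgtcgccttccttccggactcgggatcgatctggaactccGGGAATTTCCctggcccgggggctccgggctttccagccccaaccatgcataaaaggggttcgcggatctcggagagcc
CXCL2: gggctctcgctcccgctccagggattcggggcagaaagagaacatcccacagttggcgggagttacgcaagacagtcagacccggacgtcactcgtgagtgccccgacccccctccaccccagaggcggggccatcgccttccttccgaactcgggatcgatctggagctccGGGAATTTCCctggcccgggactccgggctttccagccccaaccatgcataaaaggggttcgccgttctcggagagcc

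The motif begins 79 bases before the start of CXCL1 and 78 bases before that of CXCL2, within a run of 24 bases that the sequences share. Its letters were read from the CXCL1 window as the match to the kB consensus, and were searched on either strand (GGAAATTCCC on the other), which 50 of 35116 such promoter windows hold (0.142%). Of the 25 chemokine, cytokine and other NF-kB target genes of the list used here, 19 had a window and 5 held the motif, CXCL1, CXCL2, CXCL3, CXCL5 and CXCL6, of which CXCL1 and CXCL2 were bright enough to be tested. A match says only that these letters are present. Of the 20 genes named above and below the threshold, 11 had a window and CXCL1 alone held these letters, which were taken from its own window. Other matches to the kB consensus were not searched in these genes.

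For the other genes that the study followed, no probe passed the adjusted p. TFPI2, an inhibitor of serine proteases related to the tissue factor pathway inhibitor, was at -2.29, -3.44, -2.84 and -3.27 in SCC13-TLR4 cells and at -1.73, -1.84, -1.53 and -1.92 in SCC13-pUNO cells. All 4 SCC13-TLR4 arrays lay below the SCC13-pUNO arrays, with a log2 difference of -1.20 (SE 0.25, limma adjusted p = 0.651). The text of the paper names TFPI rather than TFPI2, and TFPI was too faint to be tested here. CDH13, a cadherin anchored to the membrane by a lipid, was at -0.87 ± 0.09 against -1.33 ± 0.14 (SD, n = 4 each). Its groups did not overlap, and the log2 difference was 0.46 (SE 0.10, limma adjusted p = 0.795), or 0.53 (SE 0.15, limma adjusted p = 0.954) by A_21_P0000176.

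ATF3, a stress-induced transcription factor, gave different values by its 3 tested probes. By the brightest, A_33_P3214096, it was at -0.90, -0.67, -1.11 and -1.66 in SCC13-TLR4 cells and at -1.54, -0.80, -1.16 and -0.50 in SCC13-pUNO cells, with overlapping groups and a log2 difference of -0.08 (SE 0.28, limma adjusted p = 0.987). By A_23_P34915 it was at -1.22, -0.40, -0.27 and -0.13 against -1.38, -1.81, -2.46 and -1.58, which do not overlap, with a log2 difference of 1.30 (SE 0.31, limma adjusted p = 0.845). By A_33_P3214105 the difference was 0.32 (SE 0.22). Which transcripts of ATF3 these probes read was not tested.

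IL6, the cytokine interleukin-6, was at -0.52, -0.48, -2.25 and -0.62 in SCC13-TLR4 cells and at -1.44, -0.39, -0.80 and -0.69 in SCC13-pUNO cells, so the groups overlapped (log2 difference -0.14, SE 0.41, limma adjusted p = 0.984). CXCL12, the ligand of CXCR4, varied more between arrays of a line than between the lines, with -6.36, -2.27, -2.24 and -2.48 against -3.65, -3.38, -1.96 and -3.41 by A_33_P3712341 (log2 difference -0.24, SE 0.82) and a log2 difference of 1.36 (SE 0.50, limma adjusted p = 0.954) by A_33_P3372840, which was above background on 1 of 4 SCC13-pUNO arrays. IL6R, the receptor of IL6, was not above background on any of the 8 arrays by either probe. TFPI was above background on 1 array by A_33_P3212615 and on 0 by A_23_P330070. These genes were therefore not tested.

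**Figure D3:**
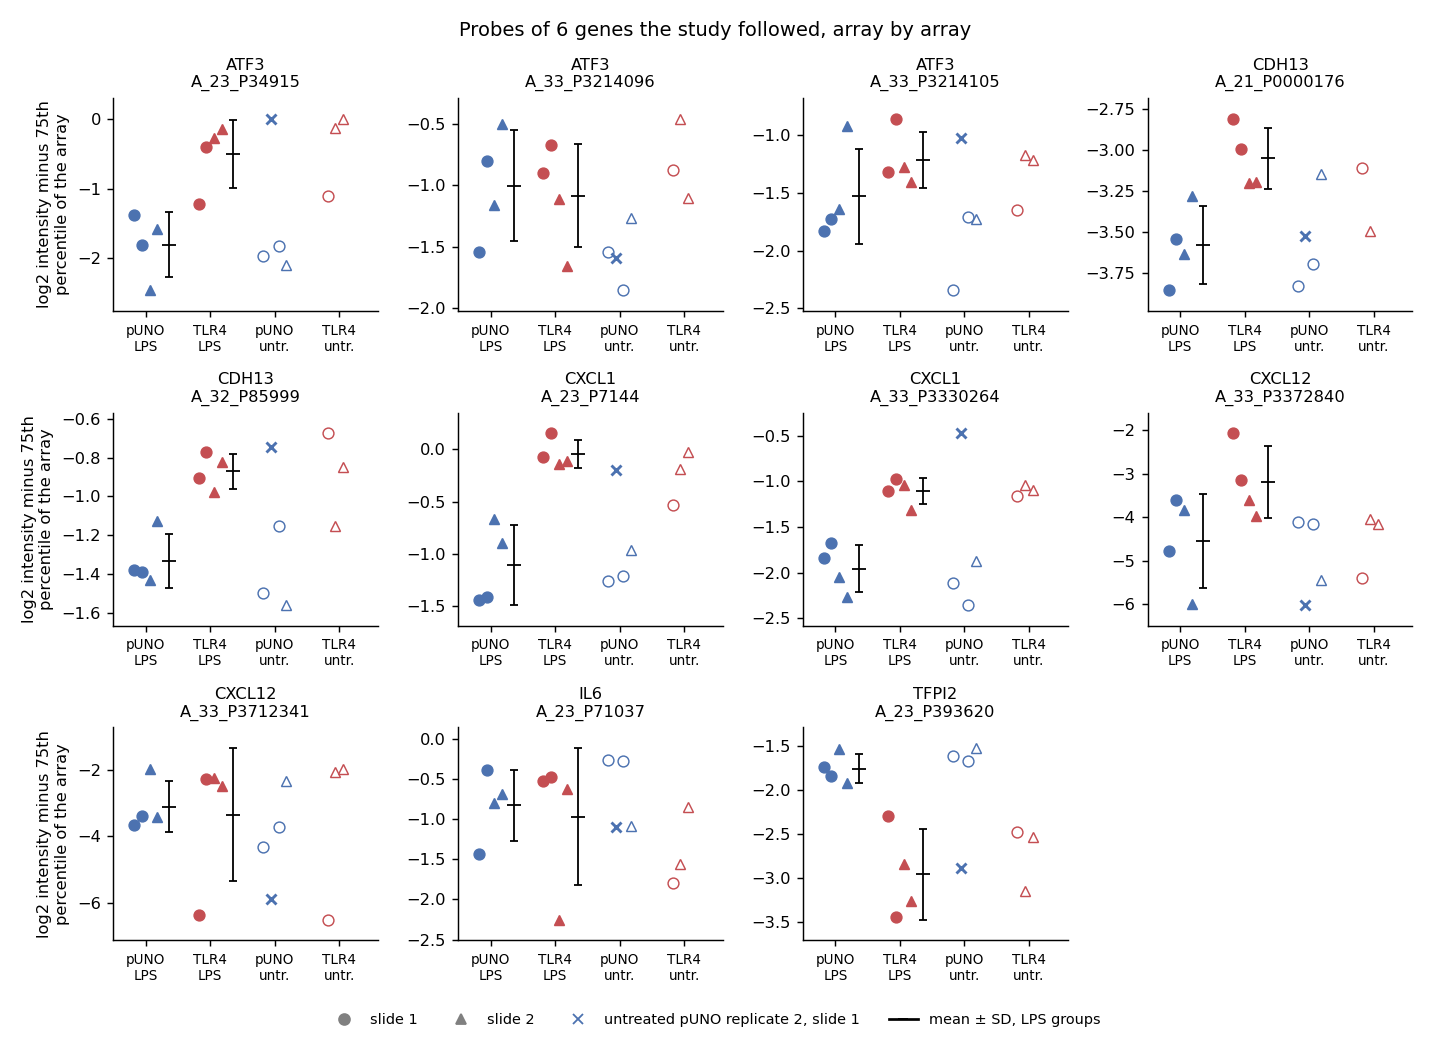
Log2 level (vertical axis) by array for the 11 tested probes of ATF3, CDH13, CXCL1, CXCL12, IL6 and TFPI2, LPS-treated groups filled and untreated groups open, with circles for slide 1, triangles for slide 2, a cross for replicate 2 of untreated SCC13-pUNO and bars for the mean ± SD of the LPS-treated groups. The LPS-treated lines are apart for CXCL1 and CDH13 by both probes and for TFPI2, apart for ATF3 by 1 of 3 probes, and overlapping for IL6 and CXCL12.

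The other genes of the TLR4 pathway were read from lists, each gene by its brightest tested probe. Of all 12786 genes read in this way 6 passed (0.0469%), and their median log2 difference was -0.02. At this share a list of the sizes below would hold close to 0 such genes, so nothing about a list is read from a count of 0. In the receptor complex, 7 of 9 genes were tested and TLR4 alone passed. LY96 was at -3.18 ± 0.37 in SCC13-TLR4 cells and -3.47 ± 0.18 (SD, n = 4 each) in SCC13-pUNO cells, a log2 difference of 0.29 (SE 0.17), and CD14 had 0.27 (SE 0.19), both faint but well above background on all 8 arrays. LY96 differed by -0.01 with normexp background correction. Of 26 adaptors and kinases, 18 were tested and 0 passed, with log2 fold changes from -0.47 to 0.16 and a median of -0.07. The ubiquitin ligase PELI1 had the smallest p of these, at -0.04, -0.44, -0.22 and -0.25 against -0.03, -0.03, 0.68 and 0.31 (log2 difference -0.47, SE 0.16, limma adjusted p = 0.954), and the adaptor TIRAP had -0.19 (SE 0.12).

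Among the response genes downstream the counts were again near that share. Of the NF-kB subunits and feedback inhibitors, 15 of 20 were tested and 0 passed (median -0.05). BCL3, an atypical inhibitor of NF-kB, had -0.24 (SE 0.16) and NFKBIA, the classical inhibitor, -0.23 (SE 0.16). Of the 25 chemokine and cytokine targets, 10 were bright enough to be tested and 0 passed (median -0.10), with CXCL1 at the upper end and IL23A, a subunit of interleukin-23, at the lower end (-0.44, SE 0.16). Among genes of the TRIF and interferon response, 22 of 28 were tested and 0 passed (median -0.01). MX1, an antiviral protein induced by interferon, was at -0.39, 0.20, -1.73 and -1.67 against -0.98, -2.13, -1.98 and -1.89, with a log2 difference of 0.85 (SE 0.33, limma adjusted p = 0.954) that was 1.46 on slide 1 and 0.24 on slide 2. IFIT2, another interferon-induced gene, had -0.25 (SE 0.17). For early response genes of ERK and JNK signalling, 24 of 27 were tested and 0 passed, and the median was 0.11, with the phosphatase DUSP1 at 0.25 (SE 0.11) and the ERK inhibitor SPRED2 at 0.25 (SE 0.12).

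The lists of growth and of keratinocyte layers likewise held 1 gene past the threshold, KRT14. All 32 genes of proliferation were tested and 0 passed (median -0.02). The cell cycle inhibitor CDKN1A was at -2.23 ± 0.18 against -2.53 ± 0.17 (SD, n = 4 each), a log2 difference of 0.31 (SE 0.10, limma adjusted p = 0.954), and thymidylate synthase, TYMS, had -0.22 (SE 0.12). In the basal layer list 14 of 15 genes were tested, and without KRT14 their differences were between -0.21 and 0.28. Of 32 genes of differentiation, 17 were tested and 0 passed (median -0.05), with KLK7, a protease of the cornified layer, at -0.38 (SE 0.10) and suprabasin, SBSN, at 0.39 (SE 0.22). Of 28 migration and mesenchymal genes, 20 were tested and 0 passed (median 0.00), with CDH13 as above and the gelatinase MMP2 at -0.31 (SE 0.17).

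Coagulation and plasminogen genes had 11 of 15 tested and 0 past the threshold. TFPI2 stood at the lower end of that list, and thrombomodulin, THBD, had -0.25 (SE 0.10). In the list of the IL-6 family and STAT3, 15 of 20 were tested and 0 passed (median 0.05), with the cytokine cardiotrophin-1, CTF1, at -0.20 (SE 0.11) and the feedback inhibitor CISH, faint in both lines, at 0.58 (SE 0.31). The integrated stress and unfolded protein response had 23 of 24 genes tested and 0 past the threshold (median 0.00, range -0.15 to 0.28), among them CHAC1 at 0.19 (SE 0.10) and CEBPB at -0.15 (SE 0.11). For hypoxia and glycolysis 17 of 22 were tested and 0 passed (median -0.03), with adrenomedullin, ADM, at -0.32 (SE 0.14) and the enolase ENO2 at 0.45 (SE 0.15). For cholesterol synthesis 17 of 19 were tested and 0 passed (median 0.00), with the sterol synthesis enzyme LSS at 0.14 (SE 0.12) and squalene epoxidase, SQLE, at -0.28 (SE 0.26).

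**Figure D4:**
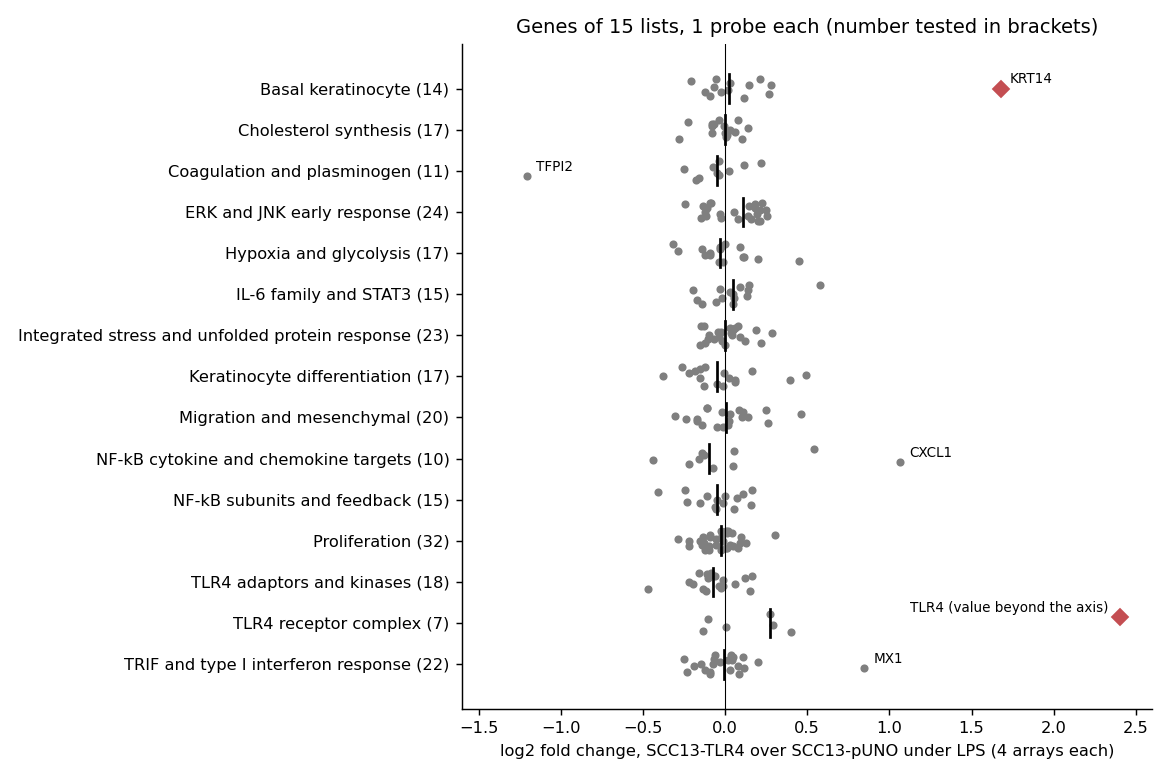
Log2 fold change of SCC13-TLR4 over SCC13-pUNO cells under LPS (horizontal axis) for the tested genes of 15 lists (rows, with the number tested), 1 probe per gene, with black bars for the median of a list and red diamonds for genes past an adjusted p of 0.05. The medians lie between -0.10 and 0.27 while TLR4 (8.86, drawn at the edge of the axis) and KRT14 (1.68) are the genes past the threshold.

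The untreated cells gave a check in arrays that the comparison above did not use, though of the same transfected lines and on the same slides. Replicate 2 of untreated SCC13-pUNO goes against its label: its TLR4 level was 3.04, where the other SCC13-pUNO arrays of the series were at or below -3.80, and for all 8 probes its level was nearer to the SCC13-TLR4 arrays. It lay in row 1 of its slide, as did all 3 untreated SCC13-TLR4 arrays, while the other untreated SCC13-pUNO arrays lay in row 3. How this array came to differ was not tested. The counts of probes past the threshold and the differences of the 8 probes are given with and without it. Other untreated values are without it unless stated. Over all 7 untreated arrays, 0 probes passed an adjusted p of 0.05 in limma (0%, with 1334 or 6.02% at an unadjusted p under 0.05). Over the 6 arrays without it, 1 probe passed (0.00449%, with 6.78% at an unadjusted p under 0.05), which was RANBP17, with a log2 difference of -4.82 (SE 0.13, limma adjusted p = 0.00553).

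In the 6 untreated arrays each of the 8 probes differed in the direction seen under LPS, and their untreated groups did not overlap. This is a description, since the array was set aside for its TLR4 level and its level of all 8 probes lay with the SCC13-TLR4 arrays. With it kept, the direction was the same for all 8 but only the groups of TLR4 did not overlap, 1 of the 8. For TLR4 replicate 2, at 3.0352, lay just below the lowest untreated SCC13-TLR4 array, at 3.0361, so TLR4 did not set it apart from that line either. Over all probes tested under LPS, 64.4% had the same sign, and untreated groups that did not overlap were found for 6.81%, or 4.99% in the same direction as under LPS. HBB was at 3.82, 4.42 and 4.31 in untreated SCC13-TLR4 cells and at -3.95, -5.66 and -5.92 on the SCC13-pUNO arrays of replicates 1, 3 and 4, where replicate 2 was at 4.63. FHIT was at -0.20, -0.65 and -1.01 against -2.21, -2.37 and -2.62, with replicate 2 at -0.40. MEST was at -1.26, -2.05 and -1.63 against -0.17, -0.09 and -0.36, with replicate 2 at -1.33. The log2 differences without LPS were 9.46 (SE 0.60) for HBB, 8.54 (SE 0.73) for TLR4, 1.94 (SE 0.15) for FHIT, 1.43 (SE 0.15) for KRT14, 1.01 (SE 0.09) for A_32_P76627, -1.31 (SE 0.16) for MEST and -3.22 (SE 0.23) for A_33_P3274009. With all 7 arrays they were 7.74 (SE 2.83) for HBB, 7.09 (SE 2.43) for TLR4, 1.62 (SE 0.54) for FHIT, 1.21 (SE 0.39) for KRT14, 0.85 (SE 0.28) for A_32_P76627, -1.09 (SE 0.39) for MEST and -2.63 (SE 0.98) for A_33_P3274009, and RANBP17 was then not well above background on every array of either line and was not tested.

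Of the 14 probes named below the threshold, 13 had the same sign without LPS and 9 had untreated groups that did not overlap in the same direction. All 14 had been chosen for groups apart under LPS. Among all 288 probes with groups apart under LPS, 80.9% had the same sign and 28.8% had untreated groups apart in the same direction. The exception in sign among the 14 was VPREB3, with 0.59 (SE 0.11) under LPS and -0.04 (SE 0.22) without, while its other probe A_33_P3299254 had 0.52 (SE 0.20) and 0.62 (SE 0.42). CXCL1 had a log2 difference of 0.78 (SE 0.09) in untreated cells by A_23_P7144 and 0.94 (SE 0.12) by A_33_P3330264, and TFPI2 had -1.08 (SE 0.21). With all 7 untreated arrays CXCL1 had 0.59 (SE 0.32) and 0.63 (SE 0.50) by these probes, and TFPI2 had -0.84 (SE 0.42). CDH13 had 0.61 (SE 0.15), or 0.51 (SE 0.21) with all 7 arrays. For IL6 the untreated value was -0.82 (SE 0.38) beside -0.14 under LPS. ATF3 by A_33_P3214096 had 0.66 (SE 0.22) without LPS beside -0.08 under LPS, with an unadjusted limma p of the interaction of 0.0533 over 15 arrays and 0.0734 over 14. By A_23_P34915 ATF3 had 1.42 (SE 0.29) without LPS, or 1.04 (SE 0.66) with all 7 arrays. Whether the difference between the lines changed with LPS was tested as an interaction in 1 fit with slide. No probe passed, over 15 arrays (0%, lowest adjusted p 1.00, with 455 or 2.01% at an unadjusted p under 0.05) or over 14 (0%, lowest adjusted p 0.12, with 465 or 2.05%). Among the 8 probes the lowest unadjusted p of the interaction was 0.221 over 15 arrays and 0.287 over 14. The intervals of the interaction are wide at this number of arrays, so equal differences with and without LPS are not shown.

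**Figure D5:**
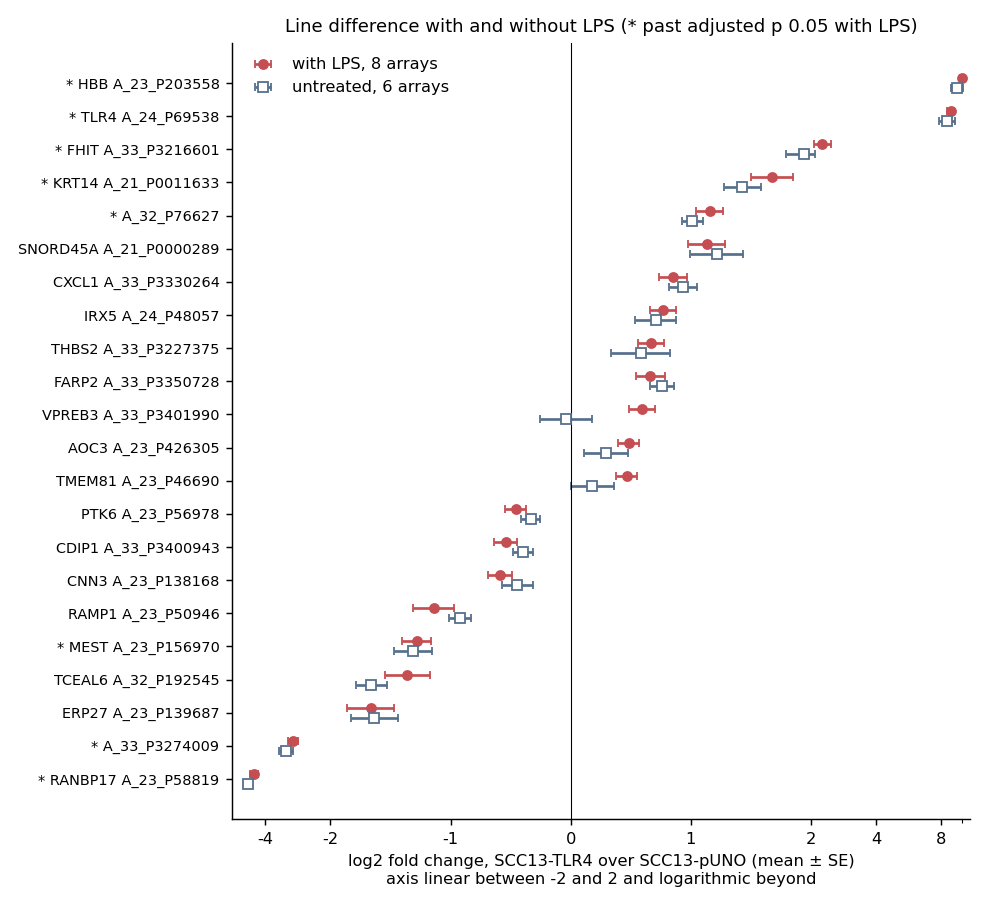
Log2 fold change of SCC13-TLR4 over SCC13-pUNO cells (horizontal axis, linear between -2 and 2 and logarithmic beyond, mean ± SE) for the 8 probes past an adjusted p of 0.05 under LPS (asterisks) and the 14 named below it, under LPS (red circles, 8 arrays) and in untreated cells (open squares, 6 arrays, without the array that goes against its label). All pairs lie on the same side of 0 but VPREB3, at 0.59 and -0.04.

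The number of probes past the threshold under LPS depended on the arrays from which the spread was estimated. When the LPS-treated arrays were fitted together with the untreated ones, all 15 arrays gave 0 probes and the 14 arrays without untreated SCC13-pUNO replicate 2 gave 22 (0.0968%). That array was set aside for its TLR4 level, and its level of all 8 probes lay with the SCC13-TLR4 arrays. The spread over 14 arrays was thus estimated after a choice made on these values, so the 22 are a description. The differences of the 8 probes were unchanged, which the balance of the lines over slides fixed in advance. The 22 held all 8 probes above. The other 14 held both further KRT14 probes (adjusted p = 0.0103 and 0.0337), CXCL1 by A_23_P7144 (0.0244), ERP27 (0.00561), TCEAL6 by both probes (0.00971 and 0.0180), RAMP1 (0.0116), CDIP1 (0.0250), PTK6 (0.0337), SNORD45A (0.0342) and IRX5 (0.0458), all limma adjusted p-values. The remaining 3 fall outside the rule by which genes were named and were chosen after their values were seen: the chemokine CCL26, known as eotaxin-3, with a log2 difference of 1.03 (SE 0.16), the sialyltransferase ST8SIA5 with 2.10 (SE 0.31) and AJAP1, which binds adherens junctions, with -0.74 (SE 0.11).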

How the data were processed

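The authors deposited 1-colour intensities that the scanner software (Agilent Feature Extraction) had corrected for background and spatial trend, per the file headers, and the arrays were not scaled to each other. In the deposited matrix all 62976 spots of every array held these same values. From them the log2 intensity relative to each array's 75th percentile was computed. Spots marked as outliers were dropped, and spots of 1 probe averaged. A probe was well above background where at least 50% of its spots were. RefSeq accessions gave a symbol to 28174 of 50599 probes.

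Lines were compared on the 8 arrays by limma 3.58.1 (R 4.3.3) with slide as a factor. P-values were moderated and then adjusted by Benjamini-Hochberg over every probe tested. The fit was tested on simulated data. Replicate numbers are from the labels, and same-numbered LPS arrays shared a slide and a slide column. Their deviations from the group means, with slide not removed, correlated at 0.418, 0.550, 0.620 and 0.393. The numbers were taken to pair the arrays in the replicate block, while the main fit holds slide only. Arrays of different number on the same slide correlated at 0.319 to 0.396, and with slide removed the same-number values were 0.196 and 0.221. With 2 arrays of a line per slide, the different-number values then mirror these (-0.196 and -0.221). Whether the numbers pair the arrays is therefore not settled by these values.

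Genes were named where the study followed them, where a probe passed the threshold, where it came nearest to it (up to 20 genes), or where they had the smallest p of a list (up to 4, of which mostly 2 are given). Bounds use the faintest probe signal well above background on each array. The comparison, the gene lists and the alternatives were chosen with earlier results of these data known. Alternatives were normexp correction (on median signals, since the files hold no mean signal), quantile and median scaling, other filters, slide and replicate terms, array weights, moderation, the arrays in the fit, each array left out, and gene means. The 14-array fit, CXCL2 and the median signals were chosen after seeing the data. Sequences are from RefSeq (GRCh38.p14). One member of the erythroid list is not reported here.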

Additional observations from a re-analysis of the deposited data

Results flagged for a closer look

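For the named probes, each group of 4 LPS-treated arrays was searched for an array far from the other 3 by Dixon's test, 114 groups in all. Chance marks about 1 in 20 groups, or 5.7 here, and 6 were found. TLR4 on SCC13-pUNO replicate 4 was at -4.74, with the others between -6.26 and -6.09, all below the background limit. IL6 on SCC13-TLR4 replicate 3 was at -2.25, with the others between -0.62 and -0.48. CXCL12 by A_33_P3712341 was at -6.36 on SCC13-TLR4 replicate 1, with the others between -2.48 and -2.24, and at -1.96 on SCC13-pUNO replicate 3, with the others between -3.65 and -3.38. TCEAL6 by A_32_P192545 was at -2.21 on SCC13-TLR4 replicate 2, with the others between -1.52 and -1.48. BCL3 was at 3.45 on SCC13-pUNO replicate 4, with the others between 3.79 and 3.83. No named probe differed between LPS-treated and untreated cells in the effect of the line at an adjusted p of 0.05.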

How the results depend on the processing

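The 8 probes kept their sign in every setting that tested them. This was fixed in advance where only the filter, the slide or replicate term, the moderation or the added untreated arrays changed. The lines are balanced over slides and replicate numbers, so the difference itself cannot change there. The count was 8 to 10 with normexp correction, quantile or median scaling, outlier spots kept or a log2 difference over 1. The same held with slide as a random block, array weights, or trended and robust moderation. It was 4 without a filter on dim probes, 5 with only probes above background on all 8 arrays (HBB, TLR4 and RANBP17 are then not tested), 5 without slide, 4 with the replicate block in place of slide, 0 over 15 arrays, 22 over 14 arrays, and 4 to 7 with 1 array left out. With a log2 difference over 2 it was 5, against 3 with normexp correction, 2 with the stricter filter and 0 over 15 arrays. TLR4 over 15 arrays was 8.86 with a limma adjusted p of 0.149. In untreated cells 0 probes became 1 without replicate 2 of untreated SCC13-pUNO. The replicate block could not be fitted together with slide, since each replicate number lies on 1 slide.

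None of the differences that changed sign had passed the test. IL6 ranged from -0.46 to 0.30 with 1 array left out (0.30 without SCC13-TLR4 replicate 3) and was 0.42 on slide 1. ATF3 ranged from -0.33 to 0.14 (0.14 without SCC13-pUNO replicate 4, 0.12 without SCC13-TLR4 replicate 4), and was 0.51 as a gene mean and 0.38 on slide 1. CXCL12 ranged from -0.95 to 0.69 (0.69 without SCC13-TLR4 replicate 1), and was 0.15 with array weights, 0.56 as a gene mean and 0.32 on slide 2. With normexp correction LY96 was -0.012, SBSN -0.0014, ENO2 -0.024 and CISH -0.019. On slide 1 MMP2 was 0.090, SBSN -0.011, CEBPB 0.032, SQLE 0.139 and CXCL2 0.013, and CXCL2 was 0.030 as a gene mean. The cause of these changes was not tested. Precision is limited by there being 4 arrays a line, and for TLR4, HBB and RANBP17, which were below background in 1 line, the fitted differences are no bounds.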
